A study of Mus musculus with 46 samples.

Results

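The 10 genes described here handle iron, heme and metal ions in macrophages: Hmox1, Fth1, Ftl1, Slc40a1, Tfrc, Slc11a1, Slc11a2, Cp, Mt1 and Mt2. They were taken by symbol from a table of read counts for 23329 mouse genes, and all 10 were found there and passed the low-count filter. RNA sequencing had been done on 46 libraries from 23 mice, 1 library of microglia (MG) and 1 of macrophages of bone marrow origin (BMDM) from the brain tumor of each mouse. Every mouse was nTVA Ink4a/Arf KO/KO, meaning that the avian virus receptor that RCAS vectors need was under the nestin promoter and the Ink4a/Arf locus was deleted. Gliomas had been started at 5 to 6 weeks of age by injecting DF1 chicken fibroblasts that release RCAS-PDGFB-HA into the brain, and the age at collection was not given in the sources used here. All groups share this driver, deletion and tumor model, and Cdkn2a, the gene of the Ink4a/Arf locus, had 0 to 30 counts per library.

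The 7 stages were vehicle (4 mice), 5 days of BLZ945 (4 mice), 5 days after ionizing radiation, IR (2 mice), 5 days of IR+BLZ945 (3 mice), and tumors that had come back under BLZ945 (2 mice), after IR (4 mice) or under IR+BLZ945 (4 mice). BLZ945 inhibits CSF1R, the receptor kinase on which most macrophages depend for survival. The sort kept CD45+CD11b+ cells without Ly6C and Ly6G and divided them by CD49d, with MG negative and BMDM positive, so the 2 names stand for the 2 sides of a CD49d gate. Itga4, which encodes CD49d, was between 0.60 and 3.35 log2 CPM in the MG libraries of vehicle mice and between 6.51 and 7.56 in their BMDM libraries. Microglial marker genes, 6 in number, together made up 11500 to 26200 CPM in vehicle MG and 3580 to 8050 CPM in vehicle BMDM, so the BMDM libraries also held these transcripts. In sorted bulk samples, fewer cells of a type and less RNA per cell cannot be told apart.

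Macrophages take up iron bound to transferrin and, when they clear dying red cells, iron inside heme. Heme oxygenase 1 opens the heme ring and frees the iron, ferritin cages store it, and ferroportin, with the ferroxidase ceruloplasmin, lets it leave the cell. Translation and stability of several of these mRNAs depend on the iron regulatory proteins, which bind a stem-loop, the iron-responsive element. An element in the 5′ UTR blocks translation when iron is low, and elements in the 3′ UTR protect the mRNA. This control acts partly on translation, which mRNA counts do not measure. Metallothioneins are small cysteine-rich proteins that bind zinc and copper, and their genes are switched on by the zinc sensor MTF1 through metal response elements.

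The stem-loops are shown because the control described above acts through them. Each sequence below is 27 bases of GRCm38 (GENCODE M21), on the strand of the gene, with the loop in capitals. The search pattern was a bulged C, 5 paired bases of the upper stem (G-T pairs allowed), the loop CAGTGN and at least 3 of 5 pairs in the lower stem. The elements of Fth1 (chr19:9982733-9982759, plus strand), Ftl1 (chr7:45459780-45459806, minus strand) and Slc40a1 (chr1:45925466-45925492, minus strand) lie in 5′ UTRs.
Fth1: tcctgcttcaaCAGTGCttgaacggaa
Ftl1: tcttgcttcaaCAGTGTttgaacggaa
Slc40a1: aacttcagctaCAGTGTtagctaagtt
Tfrc held 4 matches, all in its 3′ UTR on the plus strand, at chr16:32631220-32631246, chr16:32631599-32631625, chr16:32631664-32631690 and chr16:32631711-32631737, given in this order.
Tfrc element 1: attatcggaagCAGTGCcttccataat
Tfrc element 2: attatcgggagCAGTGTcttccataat
Tfrc element 3: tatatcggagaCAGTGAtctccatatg
Tfrc element 4: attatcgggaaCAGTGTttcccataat
The pattern was found in a UTR of 46 of 21877 coding genes (0.21%), and the other 6 members had no match to it. It allowed no unpaired base in the upper stem, so a member without a match can still carry an element. A match describes letters only.

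The promoters of Mt2 and Mt1 are shown because the 2 genes are neighbors that moved together in these libraries. Mt2 (chr8:94172664-94173568, plus strand) lies 5513 bases before Mt1 (chr8:94179082-94180327, plus strand), and each has 3 exons. The 250 bases before the RefSeq start (GRCm38.p6) are at chr8:94172368-94172617 for Mt2 and chr8:94178839-94179088 for Mt1, both on the plus strand. The gene intervals above are of GENCODE M21, whose starts differ from those of RefSeq. The Mt1 stretch runs past its GENCODE start, and the Mt2 stretch ends before its GENCODE start. Which matches lie before the start therefore depends on the annotation. Capitals mark matches to TGCACNC or TGCGCNC, the core of the metal response element, on either strand.
Mt2 promoter: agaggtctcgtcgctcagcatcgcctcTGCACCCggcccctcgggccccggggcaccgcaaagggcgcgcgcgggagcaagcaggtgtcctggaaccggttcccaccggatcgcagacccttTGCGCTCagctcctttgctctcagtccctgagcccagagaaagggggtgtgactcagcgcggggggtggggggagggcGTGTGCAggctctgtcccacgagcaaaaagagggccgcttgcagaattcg
Mt1 promoter: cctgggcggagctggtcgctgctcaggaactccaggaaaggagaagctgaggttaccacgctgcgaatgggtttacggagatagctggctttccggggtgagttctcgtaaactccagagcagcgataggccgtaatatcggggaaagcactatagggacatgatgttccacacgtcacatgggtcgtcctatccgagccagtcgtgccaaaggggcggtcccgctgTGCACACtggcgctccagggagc
In the 300-base window that also takes in 50 bases after the start, Mt2 had 4 matches and Mt1 had 3. At least 3 matches were found in 1.97% of 32841 RefSeq promoter windows of that length, and at least 4 in 0.518%. Tfrc had 2 matches in 1 of its windows, and the windows of Fth1, Ftl1, Slc11a1 and Cp had none.

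Libraries held 3007379 to 16993474 counts each, the lowest 2 being MG libraries (mouse 65971 after 5 days of IR+BLZ945 at 3007379 and mouse 68344 in IR recurrence at 4597962). The sex-linked genes of the 2 libraries disagreed for 1 of 23 mice, mouse 65698 (5-day IR). By these genes the stages also differed in sex. Xist lay above the Y-linked genes in both libraries of 3 of 4 vehicle mice, of 4 of 4 mice on 5 days of BLZ945, of 0 of 2 after 5-day IR and of 2 of 3 after 5-day IR+BLZ945, and in recurrence of 1 of 2 (BLZ945), 0 of 4 (IR) and 1 of 4 (IR+BLZ945). A fit with this as a term per library (the sex term), chosen after seeing the data, kept 51 of the 59 calls described below. The libraries of mouse 65698, the 2 shallow ones and the BMDM libraries of mice 122 and 124 (5-day BLZ945), in which 10753 and 10298 genes had at least 10 counts, are called the 6 doubted libraries below. Without them, 53 of the 59 calls passed; 1 library per population is then left in 5-day IR, and it is assumed to vary like the other groups. Levels of a pair of RNAs differed between the 5-day and the recurrent libraries of both populations. Lars2 was between 5.09 and 8.51 log2 CPM in MG at 5 days and between 11.62 and 15.21 in recurrence, and in BMDM between 1.90 and 9.69 and between 11.43 and 12.99. Malat1, a nuclear RNA, went the other way in MG (10.55 to 12.45 against 7.87 to 10.29) and in BMDM (11.14 to 14.05 against 7.75 to 10.80). In vehicle tumors Lars2 was at 6.15 to 13.87 in MG and at 2.99 to 7.77 in BMDM, and Malat1 at 8.94 to 10.37 and at 11.34 to 13.20, without overlap between the populations for Malat1. A fit with the difference between these 2 levels as a term (the Malat1-Lars2 fit) is given beside the calls it ended, as are the sex term and a term for short against 5-digit mouse numbers (the mouse-number term). Neither RNA overlapped between 5 days and recurrence in either population. The Malat1-Lars2 term and the step from 5 days to recurrence therefore cannot be told apart. A recurrence call lost with this term does not say that the change was absent. In vehicle tumors, where Malat1 did not overlap between MG and BMDM, the term also partly tracked the population. A vehicle difference between MG and BMDM that was lost or gained with it is therefore not decided by that fit. The 5 marker genes of glioma cells and oligodendrocyte precursors also moved with stage: they summed to 2.13 to 63.3 CPM in MG at 5 days and to 76.1 to 673 CPM in MG in recurrence, and in BMDM to 0 to 12.9 and 40.5 to 252 CPM. Though the sort left out Ly6G and Ly6C, 5 neutrophil markers summed in BMDM to 5.41 to 1560 CPM in vehicle. They summed there to 0.0714 to 940 CPM after 5-day BLZ945, 12.2 to 2270 after 5-day IR+BLZ945 and 3.09 to 7.56 after 5-day IR. In recurrent BMDM the sums were 4.83 to 33.9 CPM (BLZ945), 0.616 to 27.4 (IR) and 18.8 to 25.7 (IR+BLZ945). Markers of Ly6C-high monocytes summed to 105 to 343 CPM in vehicle BMDM and to 141 to 1100 in BLZ945 recurrence. The part of all these transcripts in the results was not tested.

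Levels are given as log2 CPM, the log2 of the read count relative to the TMM-scaled library total, which do not take account of gene length and are therefore not compared between genes. Differences are log2 fold changes with their standard error (SE) from edgeR's quasi-likelihood test, a gene passed at a Benjamini-Hochberg adjusted p of 0.05 over all genes tested, and every adjusted p below is of this kind. Of 410 tests of a member in 41 comparisons, 59 passed, and 5.91% of tests passed over all genes. Every percentage of all genes below is the share that passed by edgeR's main fits at this adjusted p. Shares of all genes for unadjusted p-values, for DESeq2 and for the other fits are not given here. Any difference over the 7 stages was called for 8 members in MG (37.4% of all genes) and for 7 in BMDM (20.7%). By edgeR's main fits Tfrc and Slc11a2 did not pass in either population, and Ftl1 did not pass in BMDM (adjusted p = 0.0529). DESeq2 called Ftl1 in BMDM (adjusted p = 0.014) and Slc11a2 in MG (0.024). Tfrc in MG passed by edgeR with the mouse-number term (0.0297). In the Malat1-Lars2 fit 2 of the 8 and 4 of the 7 passed. The call of Slc11a1 in MG was lost with the mouse-number term (adjusted p = 0.0705) and the sex term (0.121). That of Cp in MG was lost with both (0.143 and 0.0976) and without the low-count filter (0.0602). The call of Slc40a1 in MG was lost in 1 fit over all 46 libraries (0.246), and that in BMDM with the mouse-number term (0.128), without the filter (0.0904) and without the doubted libraries (0.0522).

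Against vehicle, 1 member passed in MG after 5 days of BLZ945 (0.303% of all genes passed, and 0.0963% were lower), 3 after 5-day IR (1.99%, lower 1.77%), 1 after 5-day IR+BLZ945 (13.4%, lower 3.89%) and 1 in BLZ945 recurrence (3.53%, lower 0.557%), and all 6 were lower. In BMDM 2 members were lower after 5 days of BLZ945 (5.51% of all genes passed, lower 3.56%), 1 was higher in IR recurrence (1.87%, higher 0.844%) and 1 in IR+BLZ945 recurrence (0.0275%, all higher). No member passed by edgeR in the 2 other recurrences of MG, IR (4.33% of all genes passed) and IR+BLZ945 (4.82%). In IR recurrence 0 members had an unadjusted p under 0.05 and 0 passed by DESeq2, and in IR+BLZ945 recurrence 5 and 4. Nor did any pass in BMDM after 5-day IR (1.07% of all genes passed), after 5-day IR+BLZ945 (0.57%) or in BLZ945 recurrence (0%). There 2, 3 and 2 members had an unadjusted p under 0.05, and 2, 2 and 1 passed by DESeq2. Recurrence against 5 days of the same treatment gave more calls. In MG 2 members passed for BLZ945 (8.24% of all genes), 4 for IR (11.6%) and 4 for IR+BLZ945 (28.1%). In BMDM the counts were 2 (6.82%), 4 (12.5%) and 4 (3.69%). Of these 20 calls, 18 were higher in recurrence: 1, 4 and 4 in MG, where 6.32%, 8.13% and 11.5% of all genes were higher, and 2, 3 and 4 in BMDM, where 5.17%, 7.06% and 1.78% were. The comparisons with vehicle share the vehicle mice, and each 5-day group enters both kinds of comparison.

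**Figure D1:**
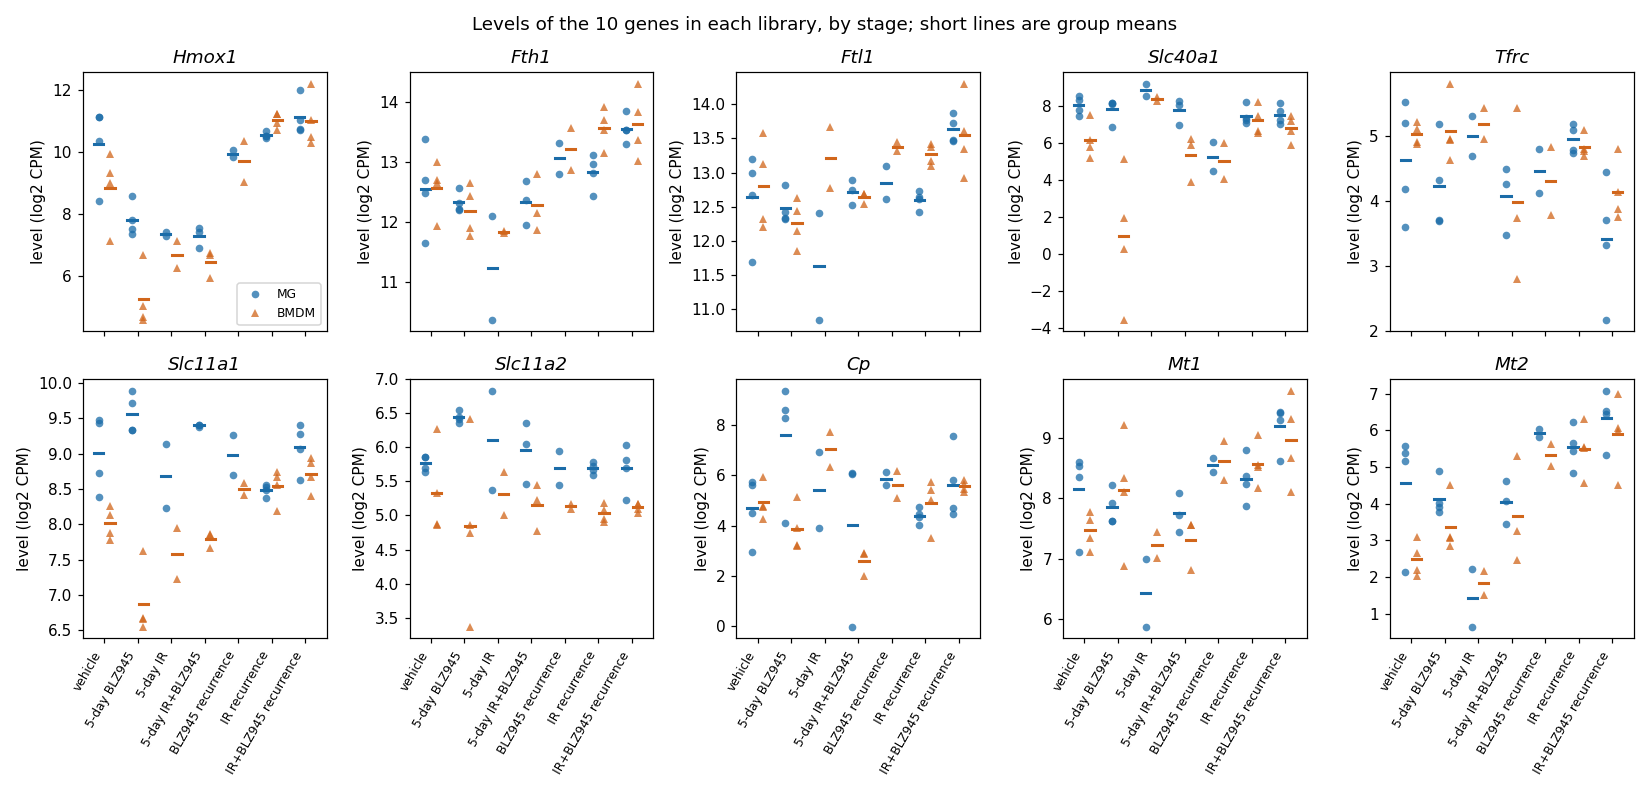
Level of each of the 10 genes (log2 CPM, vertical axes with their own range) in every library, by stage on the horizontal axis; circles are MG libraries, triangles BMDM libraries and short lines group means. Hmox1 is low in all 3 groups at 5 days and high in all 3 recurrences in both populations, and Slc40a1 is lowest in BMDM after 5 days of BLZ945, where 1 library had no count.

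Hmox1 (chr8:75093621-75100589, plus strand, 5 exons) encodes heme oxygenase 1, the inducible enzyme of heme breakdown, and it moved most often, with 13 calls. In vehicle MG its 4 levels were 10.35, 11.12, 11.12 and 8.41 log2 CPM. After 5 days of BLZ945 they were 7.51, 7.81, 7.34 and 8.58, after 5-day IR 7.41 and 7.30, and after 5-day IR+BLZ945 7.56, 6.91 and 7.42. All 9 MG libraries at 5 days lay below 3 of the 4 vehicle libraries, and only mouse 65975 (8.58) lay above the lowest vehicle library, that of mouse 65967. Hmox1 fell in MG after BLZ945 by 2.61 on the log2 scale (SE 0.43, adjusted p = 0.0149), after IR by 3.19 (SE 0.59, adjusted p = 0.00526) and after IR+BLZ945 by 3.14 (SE 0.50, adjusted p = 9e-04).

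In vehicle BMDM, Hmox1 was at 8.99, 9.32, 9.92 and 7.13 log2 CPM. At day 5 of BLZ945 it was at 4.59, 4.68, 5.02 and 6.69, after 5-day IR at 6.24 and 7.14, and after 5-day IR+BLZ945 at 6.69, 6.73 and 5.94. The BLZ945 and IR+BLZ945 groups lay wholly below vehicle, and the IR group overlapped it through mouse 65972. The fall after BLZ945 was 3.58 on the log2 scale (11.9-fold lower; SE 0.59, adjusted p = 0.00199). The changes of -2.33 after IR (SE 0.73, adjusted p = 0.117) and -2.59 after IR+BLZ945 (SE 0.63, adjusted p = 0.0653) did not pass by edgeR's main fit. DESeq2 called both (-2.29, adjusted p = 0.0105, and -2.52, 0.00134). Without the 6 doubted libraries the change after IR+BLZ945 was -2.60 (adjusted p = 0.0243).

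In the recurrent tumors the MG levels of Hmox1 were 9.83 and 10.05 for BLZ945, 10.68, 10.50, 10.52 and 10.45 for IR, and 10.72, 11.99, 11.02 and 10.74 for IR+BLZ945. The BMDM levels were 10.35 and 9.04, then 10.93, 10.71, 11.23 and 11.22, then 11.03, 12.20, 10.48 and 10.29. Every recurrent library lay above every 5-day library of the same population and treatment. Hmox1 rose from 5 days to recurrence in MG by 2.03 for BLZ945 (SE 0.48, adjusted p = 0.0106), by 3.26 for IR (SE 0.59, adjusted p = 0.00214) and by 3.76 for IR+BLZ945 (13.6-fold; SE 0.51, adjusted p = 0.000207). In BMDM it rose by 4.32 (20-fold; SE 0.65, adjusted p = 0.000822), 4.25 (19-fold; SE 0.82, adjusted p = 0.00271) and 4.70 (26-fold; SE 0.70, adjusted p = 0.00105). Recurrence did not differ from vehicle by edgeR in the fits per population. The nearest case was IR recurrence in BMDM, higher than vehicle in 4 of 4 libraries, with a change of 1.92 (SE 0.55, adjusted p = 0.0722), which passed without the doubted libraries (1.88, 0.0444), by DESeq2 (1.93, 0.00798) and in 1 fit over all libraries (1.89, 0.024). DESeq2 also called IR+BLZ945 recurrence in BMDM (2.07, adjusted p = 0.013).

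Several of these calls did not pass in alternative fits, while each change kept its direction. The fall in MG after BLZ945 did not pass without vehicle mouse 78 (-2.41, adjusted p = 0.075) or without mice 122 (-2.50, 0.131), 123 (-2.63, 0.0864) or 124 (-2.46, 0.0904), nor in the Malat1-Lars2 fit (-2.44, 0.077), and the fall after IR did not pass without mouse 65698 (-3.32, 0.074), without mouse 65972 (-3.08, 0.152) or without the 6 doubted libraries (-3.31, 0.0507). With that term Hmox1 kept 7 of 13 calls: of the recurrence calls, that for IR+BLZ945 in MG stayed, and the others came to 1.72 (adjusted p = 0.246) for BLZ945 and 2.86 (0.087) for IR in MG, and to 2.55 (0.151), 1.68 (0.818) and 3.28 (0.0615) in BMDM. The rise for BLZ945 in MG was also lost without mouse 70696 (1.87, adjusted p = 0.0698) and with a mouse-number term (1.88, 0.0634), and that for IR in BMDM without mouse 65698 (3.85, 0.0667).

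Hmox1 was also compared between the 2 populations. After 5 days of BLZ945 it was 5.15-fold higher in MG (log2 difference 2.36, SE 0.51, adjusted p = 0.000582), higher in MG in 4 of 4 mice. In vehicle tumors it was higher in MG in 4 of 4 mice, by 1.19 to 1.8, but the difference of 1.43 (SE 0.49) had an adjusted p of 0.0604. With the mouse as a replicate block it was 1.41 (adjusted p = 0.000849). In IR recurrence Hmox1 was lower in MG in 4 of 4 mice, by 0.20 to 0.77, and this did not pass. Of 8 erythroid markers 7 were in the table. The globin genes Hba-a1, Hba-a2, Hbb-b1 and Hbb-b2 were listed at 0 in all libraries, and how the counting treated such near-identical genes is not given in the sources used here. The list summed to 0.083 to 48.8 CPM in MG at 5 days and to 3.47 to 617 CPM in recurrent MG, and in BMDM to 0 to 1.25 and to 1.21 to 77.8 CPM, with overlap between 5 days and recurrence in both. The part of red cell transcripts in the Hmox1 values was not tested.

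**Figure D2:**
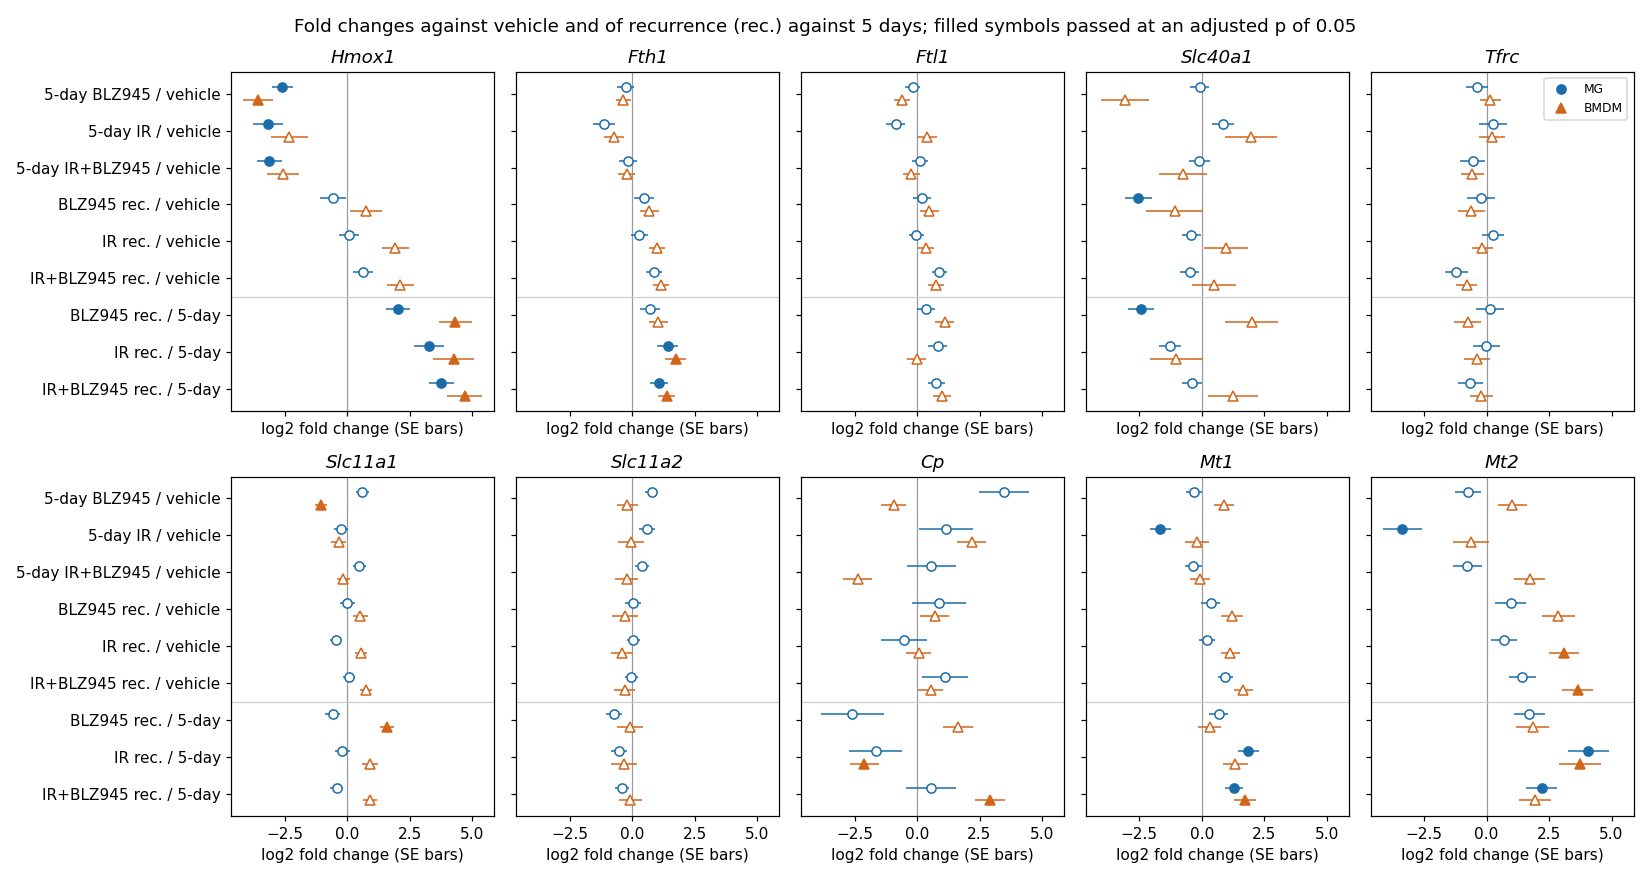
Log2 fold change (horizontal axes, bars are 1 SE) of each gene in the 6 treated groups against vehicle and, under the gray line, in recurrence against 5 days of the same treatment; circles are MG, triangles BMDM, and filled symbols passed at an adjusted p of 0.05. Filled symbols to the right are found in the recurrence rows for Hmox1, Fth1, Mt1 and Mt2 in both populations, and the Tfrc and Slc11a2 panels have none.

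Ferritin, the iron store, is a cage of heavy chains (Fth1, chr19:9980598-9985098, plus strand, 5 exons), which oxidize iron, and light chains (Ftl1, chr7:45457944-45459884, minus strand, 4 exons), which help form the mineral core. Fth1 rose from 5 days to recurrence after IR and after IR+BLZ945 in both populations, 4 of its 6 comparisons of this kind. Ftl1 passed in none of these 6 by edgeR's main fits. For IR+BLZ945 in MG it passed by edgeR without vehicle mouse 65967 (0.78, adjusted p = 0.0432). Ftl1 overlaps Gm22133 and, on the other strand, Gm10252, and the strand setting of the counts was not given in the sources used here.

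In MG the Fth1 levels were 12.11 and 10.38 log2 CPM after 5-day IR and 13.12, 12.44, 12.98 and 12.82 in IR recurrence. After 5-day IR+BLZ945 they were 12.69, 11.95 and 12.38, and in IR+BLZ945 recurrence 13.30, 13.54, 13.85 and 13.54. Recurrence lay wholly above 5 days in both pairs, and the rises were 1.41 for IR (SE 0.43, adjusted p = 0.0385) and 1.06 for IR+BLZ945 (SE 0.37, adjusted p = 0.0359). In vehicle MG Fth1 was at 12.49, 13.39, 12.71 and 11.66, and after 5 days of BLZ945 at 12.21, 12.33, 12.23 and 12.58. Those 2 groups overlapped. In BLZ945 recurrence it was at 13.33 and 12.81.

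In BMDM the Fth1 levels were 11.82 and 11.86 after 5-day IR against 13.70, 13.15, 13.92 and 13.54 in IR recurrence, a rise of 1.74 (3.34-fold; SE 0.42, adjusted p = 0.0111). They were 12.16, 12.81 and 11.88 after 5-day IR+BLZ945 against 13.84, 14.31, 13.37 and 13.02 in recurrence, a rise of 1.37 (SE 0.35, adjusted p = 0.031). Neither pair overlapped. Vehicle BMDM (12.71, 12.66, 13 and 11.94) lay below all 4 IR recurrences and all 4 IR+BLZ945 recurrences, but these differences of 1.00 (SE 0.32, adjusted p = 0.103) and 1.14 (SE 0.32, adjusted p = 0.197) did not pass by edgeR. DESeq2 called both (1.00, adjusted p = 0.0246, and 1.09, 0.0357). At day 5 of BLZ945 BMDM levels were 12.44, 11.77, 12.65 and 11.90, and in BLZ945 recurrence 13.57 and 12.88.

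The 4 Fth1 calls of recurrence against 5 days by edgeR did not hold in several alternative fits. In the Malat1-Lars2 fit none of the 4 passed: the changes were 0.89 (adjusted p = 0.649) and 0.59 (0.632) in MG, and -0.61 (0.848), now in the other direction, and 0.16 (0.871) in BMDM. The MG call for IR was lost without any 1 of 9 libraries (mice 123, 65972, 68343, 68345, 68346, 67169, 67543, 67947 and 68362; 0.77 to 1.42, adjusted p 0.0543 to 0.384), and that for IR+BLZ945 without mouse 65971, 67537 or 67947 (0.92 to 1.04, adjusted p 0.0636 to 0.118) or without the doubted libraries (0.92, 0.0599). The BMDM call for IR was lost without mouse 65698 (1.70, adjusted p = 0.125) or without the doubted libraries (1.68, 0.066), and that for IR+BLZ945 without mouse 65696, 67537, 67169, 67543 or 67947 (1.07 to 1.43, adjusted p 0.05 to 0.15) and with the sex term (1.19, 0.076).

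Ftl1 ranged from 10.85 to 13.87 log2 CPM in MG and from 11.85 to 14.30 in BMDM. Its highest MG group was IR+BLZ945 recurrence, at 13.46, 13.72, 13.87 and 13.48, above all 4 vehicle libraries (11.70 to 13.20) and all 4 IR recurrences (12.43 to 12.73). Neither difference passed by edgeR's main fit: 0.89 against vehicle (SE 0.30, adjusted p = 0.0877) and 0.92 against IR recurrence (SE 0.30, adjusted p = 0.189). DESeq2 called both (0.99, adjusted p = 0.0164, and 1.01, 0.0278). The difference from vehicle also passed by edgeR without vehicle mouse 78 (1.05, adjusted p = 0.0483). The single Ftl1 call between populations was at 5-day IR, with 12.41 and 10.85 in MG and 13.66 and 12.77 in BMDM, lower in MG in 2 of 2 mice (log2 difference -1.45, SE 0.44, adjusted p = 0.0299). It was lost without the MG library of mouse 65972 (-0.87, adjusted p = 0.495) or the BMDM library of mouse 65698 (-0.93, 0.461). The difference over the stages in MG (adjusted p = 0.017) was lost without mouse 67947 (0.0533) and in the Malat1-Lars2 fit (0.245).

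Slc40a1 (chr1:45908068-45926523, minus strand, 8 exons) encodes ferroportin, the iron exporter of the cell membrane. By edgeR's main fit it fell in MG in BLZ945 recurrence alone, and its lowest levels of all were in BMDM after 5 days of BLZ945. In MG its levels were 8.34, 7.79, 7.45 and 8.53 log2 CPM in vehicle, 8.16, 8.11, 8.15 and 6.87 after 5 days of BLZ945, 8.53 and 9.20 after 5-day IR and 8.03, 6.99 and 8.26 after 5-day IR+BLZ945. In recurrence they were 4.47 and 6.03 for BLZ945, 7.22, 8.23, 7.07 and 7.36 for IR, and 7.70, 7.01, 8.17 and 7.26 for IR+BLZ945. The 2 BLZ945 recurrences were the 2 lowest of all 23 MG libraries. Slc40a1 fell there by 2.54 against vehicle (5.80-fold lower; SE 0.53, adjusted p = 0.0102) and by 2.45 against 5 days of BLZ945 (SE 0.52, adjusted p = 0.00547). Both calls were lost without mouse 67668, at -1.94 (adjusted p = 0.127) and -1.84 (0.116), and in 1 fit over all 46 libraries, at -2.63 (0.212) and -2.47 (0.142). The second was also lost in the Malat1-Lars2 fit (-1.82, 0.219) and with a mouse-number term (-2.01, 0.0551). In IR recurrence against 5-day IR Slc40a1 did not pass in MG by edgeR's main fit. A fall was called there by DESeq2 (-1.3, adjusted p = 0.033) and in some edgeR fits with 1 library left out (-1.77 to -1.28).

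In BMDM, Slc40a1 was at 5.19, 6.16, 5.81 and 7.50 log2 CPM in vehicle. After 5 days of BLZ945 it was at 0.30, 5.12, -3.53 and 1.95, from 11, 408, 0 and 53 counts, and the lowest value is that of a library without a count and is set by the prior count of 1. All 4 lay below vehicle, yet the change of -3.08 (SE 0.96) had an adjusted p of 0.0627, with the 4 libraries far apart from each other. It passed without mouse 123 (-5.63, adjusted p = 0.00205), in 1 fit over all 46 libraries (-3.11, 0.00848), by DESeq2 (-3.05, 0.0279) and with the sex term (-3.35, 0.043). It did not pass in the other alternative fits, among them the one without the doubted libraries. The libraries with 11 and 0 counts, of mice 122 and 124, are among the doubted ones. After 5-day IR Slc40a1 was at 8.25 and 8.48 and after 5-day IR+BLZ945 at 5.87, 3.91 and 6.23. The 2 IR libraries lay above all vehicle libraries. In recurrence the levels were 4.06 and 5.98 for BLZ945, 6.62, 8.23, 6.54 and 7.47 for IR, and 6.65, 5.88, 7.47 and 7.17 for IR+BLZ945.

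Markers of border-associated macrophages, which live in the meninges and around vessels, moved with the BMDM values of Slc40a1. All 6 were in the table and summed to 297 to 1090 CPM in vehicle BMDM, to 88.7 to 574 CPM after 5 days of BLZ945, where Lyve1 was at 0, and to 2700 and 4630 CPM after 5-day IR. In recurrent BMDM they summed to 273 to 1870 CPM. Their part in the Slc40a1 values was not tested.

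Slc40a1 was higher in MG than in BMDM in 21 of 23 mice. After 5 days of BLZ945 the log2 difference was 4.61 (24.4-fold, SE 0.82, adjusted p = 4.81e-05), higher in MG in 4 of 4 mice by 3.00 to 11.68. The value of 11.68 is that of mouse 124, whose BMDM library had no count. After 5-day IR+BLZ945 it was higher in 3 of 3 mice, by 2.03 to 3.08, with a difference of 2.24 (SE 0.85, adjusted p = 0.0739) that passed with the mouse as a replicate block (2.43, adjusted p = 0.0282) and without the doubted libraries (2.52, 0.0175). In vehicle tumors the difference was 1.66 (SE 0.72, adjusted p = 0.165), higher in 4 of 4 mice, and it passed without the doubted libraries (1.66, 0.0448) and in the Malat1-Lars2 fit (3.46, 0.0128). Because the Malat1-Lars2 term partly tracked the population in vehicle tumors, that fit does not decide the vehicle difference. The response of Slc40a1 to 5 days of BLZ945 was 2.95 less negative in MG than in BMDM (SE 1.02, adjusted p = 0.137), and with the block it was 4.25 (adjusted p = 0.0239).

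Cp (chr3:19957054-20009145, plus strand, 20 exons) encodes ceruloplasmin, a copper enzyme that oxidizes the iron leaving through ferroportin. Hps3 lies on the other strand of the same interval. In MG it was at 5.63, 5.75, 2.94 and 4.49 log2 CPM in vehicle and at 8.62, 9.38, 8.30 and 4.10 after 5 days of BLZ945. Of these 4 BLZ945 libraries, 3 lay above every vehicle library, and mouse 65975 lay within the vehicle range. Those 3 came from mice with short numbers (122, 123 and 124), as did the highest vehicle libraries (mice 41 and 78). The change of 3.48 (SE 0.99) did not pass (adjusted p = 0.108), nor did it pass with the mouse-number term. It passed by DESeq2 (3.5, adjusted p = 0.0152), in 1 fit over all libraries (3.4, 0.0445), without the doubted libraries (3.47, 0.0465), without mouse 65975 (3.86, 0.0194) and without mouse 65971 (3.48, 0.0359). After 5-day IR, MG levels were 6.94 and 3.89, and after 5-day IR+BLZ945 6.04, -0.03 and 6.11, the middle one from 3 counts. The 6 choroid plexus markers summed to 1750, 21.8 and 1630 CPM in those 3 libraries, in the same order, and to 1.04 to 6.16 CPM in vehicle MG. Their part in the Cp values was not tested.

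In BMDM, Cp was at 4.73, 4.79, 4.26 and 5.92 in vehicle, 3.24, 5.13, 3.18 and 3.91 after 5 days of BLZ945, 6.32 and 7.75 after 5-day IR and 1.98, 2.92 and 2.85 after 5-day IR+BLZ945. The 2 IR libraries lay above all others of these 4 groups, and the 3 IR+BLZ945 libraries lay below all of them. Between these 2 groups Cp was 23.8-fold lower after IR+BLZ945 (log2 fold change -4.57, SE 0.69, adjusted p = 0.00147), the single call of the combination against a single treatment in BMDM, where 2.36% of all genes passed in that comparison. Against vehicle the changes of 2.19 after IR (SE 0.58, adjusted p = 0.0646) and -2.38 after IR+BLZ945 (SE 0.59, adjusted p = 0.0686) did not pass, but without the doubted libraries they were 2.74 (adjusted p = 0.0196) and -2.39 (0.0135). The border-associated macrophage markers summed to 215 to 661 CPM in the 3 IR+BLZ945 libraries, against the 2700 and 4630 CPM given above for IR.

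From 5 days to recurrence Cp moved in both directions in BMDM. In IR recurrence it was at 3.49, 5.01, 5.74 and 5.40, a fall from 5-day IR by 2.12 (SE 0.58, adjusted p = 0.0223). In IR+BLZ945 recurrence it was at 5.44, 5.32, 5.83 and 5.67, a rise of 2.93 over 5 days (7.60-fold; SE 0.60, adjusted p = 0.00985). Neither pair overlapped, and the 2 recurrent groups did not differ from each other by the test. The fall after IR was lost without mouse 65972 (-1.19, adjusted p = 0.27), 68343 (-1.83, 0.0541) or 68344 (-2.08, 0.0505), in 1 fit over all libraries (-2.09, 0.102) and in the Malat1-Lars2 fit (-1.13, 0.884). The rise was lost without mouse 65696 (2.67, 0.06) and in 1 fit over all libraries (2.93, 0.0548). In BLZ945 recurrence BMDM levels were 6.17 and 5.08, and the MG levels in the 3 recurrences were 6.13 and 5.60, then 4.46, 4.04, 4.73 and 4.36, then 4.47, 4.70, 5.81 and 7.56.

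Cp was 20.5-fold higher in MG than in BMDM after 5 days of BLZ945 (log2 difference 4.36, SE 0.87, adjusted p = 0.000239), higher in 4 of 4 mice. It was higher by 5.37, 4.25 and 5.12 in mice 122, 123 and 124, which have short numbers, but by 0.19 in mouse 65975. This call passed with the mouse-number term. After 5-day IR+BLZ945 Cp was 7.38-fold higher in MG (2.88, SE 0.96, adjusted p = 0.0406), higher in 2 of 3 mice. The second call was lost with the mouse as a replicate block (2.27, adjusted p = 0.268), with the sex term (2.81, 0.0544), without the low-count filter (2.88, 0.0778), and without the MG library of mouse 65696 or 67537 or any of the 3 BMDM libraries (2.46 to 3.04, adjusted p 0.0887 to 0.107). The response of Cp to 5 days of BLZ945 differed between the populations by 4.36 (SE 1.12, adjusted p = 0.0339), 1 of 2 members called there (1.65% of all genes). With the block this was 4.24 (adjusted p = 0.109), in the Malat1-Lars2 fit 4.40 (0.152), without the filter 4.35 (0.0774), without the doubted libraries 3.82 (0.082), and without any 1 of 7 libraries (MG of mice 65966, 65967, 122 and 123, BMDM of mice 65967, 122 and 124) 3.82 to 4.31 (0.059 to 0.0935).

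Tfrc (chr16:32608920-32632794, plus strand, 19 exons) encodes the transferrin receptor, through which cells take up iron from transferrin. It passed in 0 of 41 comparisons by edgeR, with an unadjusted p under 0.05 in 2 of them, and DESeq2 called 1. Its levels ran from 2.17 to 5.52 log2 CPM in MG and from 2.79 to 5.81 in BMDM. The lowest group was MG in IR+BLZ945 recurrence, at 3.71, 2.17, 3.32 and 4.45, which lay wholly below MG in IR recurrence (4.74, 5.19, 4.78 and 5.10). That difference was -1.46 (SE 0.47, adjusted p = 0.182; by DESeq2 -1.37, adjusted p = 0.046), and the one against vehicle was -1.21 (SE 0.46, adjusted p = 0.125). With a mouse-number term the latter came to -1.72 (adjusted p = 0.0206), and in the Malat1-Lars2 fit to -0.12 (0.994).

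Slc11a1 (chr1:74375195-74386062, plus strand, 15 exons) encodes NRAMP1, a metal transporter of the phagosome membrane of macrophages. It separated the 2 populations more often than any other member: it was higher in MG at vehicle and in all 3 groups at 5 days, and in no recurrence by the test. In vehicle the MG levels were 8.72, 9.43, 8.39 and 9.47 and the BMDM levels 7.78, 7.87, 8.26 and 8.13 log2 CPM. At day 5 of BLZ945 they were 9.89, 9.33, 9.71 and 9.33 in MG and 6.55, 6.67, 7.62 and 6.66 in BMDM. In both stages every MG library lay above every BMDM library. The difference was 1.05 in vehicle (2.07-fold; SE 0.25, adjusted p = 0.0033) and 2.64 after BLZ945 (6.23-fold; SE 0.26, adjusted p = 1e-09).

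After 5-day IR the Slc11a1 levels were 9.13 and 8.23 in MG and 7.23 and 7.94 in BMDM, and after 5-day IR+BLZ945 9.41, 9.38 and 9.41 against 7.86, 7.85 and 7.67. The populations did not overlap. The differences were 1.12 (SE 0.35, adjusted p = 0.0342) and 1.61 (SE 0.29, adjusted p = 0.000155). The call at 5-day IR was lost with the mouse as a replicate block (1.10, adjusted p = 0.0626), without the MG or the BMDM library of mouse 65698 (0.60, 0.38 and 0.81, 0.445), without the doubted libraries (0.30, 0.716), without the low-count filter (1.12, 0.0507), with the sex term (1.03, 0.0637) and in the Malat1-Lars2 fit (0.93, 0.0861). That in vehicle was lost with this term (0.75, 0.116).

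In recurrence the MG levels of Slc11a1 were 9.26 and 8.69, then 8.53, 8.56, 8.49 and 8.37, then 8.62, 9.41, 9.28 and 9.06, for BLZ945, IR and IR+BLZ945. Those of BMDM were 8.59 and 8.42, then 8.19, 8.67, 8.74 and 8.56, then 8.93, 8.67, 8.86 and 8.40. The populations overlapped in IR and IR+BLZ945 recurrence. In BMDM Slc11a1 fell after 5 days of BLZ945 by 1.05 (SE 0.24, adjusted p = 0.0147) and was higher in BLZ945 recurrence than at 5 days by 1.58 (SE 0.28, adjusted p = 0.00348), without overlap in either case. The first was lost without mouse 122 (-0.93, adjusted p = 0.056) and the second without mouse 67668 (1.46, 0.0582) and in the Malat1-Lars2 fit (1.12, 0.0833). The 6 microglial markers moved with these BMDM values: they summed to 3580 to 8050 CPM in vehicle BMDM, to 784 to 2350 CPM after 5 days of BLZ945 and to 3350 to 6350 CPM in BLZ945 recurrence. Their part in the Slc11a1 values, and in the differences between MG and BMDM, was not tested. In MG the change after 5 days of BLZ945 was 0.60 (SE 0.25, adjusted p = 0.277). The difference between these 2 responses was itself tested, at 1.59 (SE 0.35, adjusted p = 0.0089), and passed in every alternative fit.

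**Figure D3:**
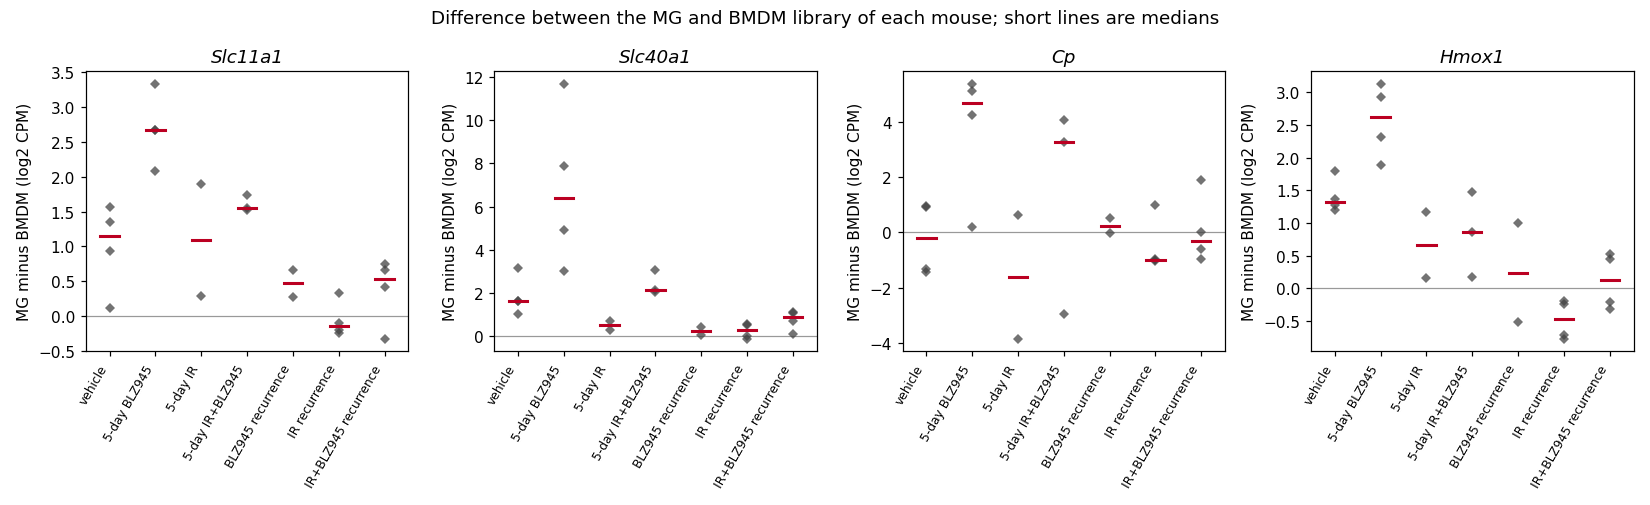
Level in the MG library minus level in the BMDM library of the same mouse (log2 CPM, vertical axes with their own range) for Slc11a1, Slc40a1, Cp and Hmox1, by stage; each diamond is 1 mouse and short lines are medians. At day 5 of BLZ945 all 4 mice lie above 0 in all 4 panels, with medians of 2.67, 6.39, 4.69 and 2.62, though mouse 65975 lies at 0.19 for Cp. In the recurrences the medians lie between -0.99 and 0.88.

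Slc11a2 (chr15:100387898-100425072, minus strand, 16 exons, with Gm5475 on the other strand) encodes DMT1, which moves iron out of the endosome. Its MG levels ran from 5.22 to 6.83 log2 CPM over 23 libraries. After 5 days of BLZ945 it was at 6.41, 6.36, 6.45 and 6.55 in MG against 5.64, 5.86, 5.70 and 5.85 in vehicle. The 2 groups did not overlap, but the difference of 0.77 (SE 0.26) had an adjusted p of 0.185 and passed without the doubted libraries (0.76, adjusted p = 0.0262). In BMDM its levels ran from 3.37 to 6.42, both in 5-day BLZ945 libraries. Slc11a2 was higher in MG in 21 of 23 mice. The single call was after 5 days of BLZ945, at 1.21 (SE 0.36, adjusted p = 0.0136; higher in 4 of 4 mice), and it was lost without the BMDM library of mouse 122 (0.89, 0.0572).

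Mt1 and Mt2 encode the 2 widely expressed metallothioneins. They rose together from 5 days to recurrence in MG after IR and after IR+BLZ945. Mt2 has Gm45774 on its other strand. In MG the Mt2 levels were 2.22 and 0.65 log2 CPM after 5-day IR against 6.22, 4.83, 5.44 and 5.65 in IR recurrence, and 4.06, 4.63 and 3.45 after 5-day IR+BLZ945 against 6.45, 7.08, 5.32 and 6.53 in recurrence. Neither pair overlapped. The rises were 4.06 (16.7-fold; SE 0.82, adjusted p = 0.00364) and 2.20 (4.6-fold; SE 0.62, adjusted p = 0.0128). The Mt1 levels were 7.0 and 5.88 against 8.80, 7.87, 8.23 and 8.37, and 8.09, 7.72 and 7.45 against 9.41, 9.43, 8.62 and 9.29, again without overlap. Mt1 rose by 1.86 (SE 0.42, adjusted p = 0.00715) and 1.29 (SE 0.35, adjusted p = 0.0105).

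In vehicle MG, Mt1 was at 8.35, 8.60, 8.54 and 7.11 and Mt2 at 5.17, 5.37, 5.58 and 2.14, mouse 65967 being lowest for both. After 5-day IR both genes fell against vehicle, Mt1 by 1.66 (SE 0.41, adjusted p = 0.0357) and Mt2 by 3.37 (SE 0.79, adjusted p = 0.0249). The Mt1 groups did not overlap, and the Mt2 groups overlapped through mouse 65967. After 5 days of BLZ945, MG levels were 7.63, 7.93, 7.63 and 8.22 for Mt1 and 4.01, 3.77, 3.90 and 4.88 for Mt2. In BLZ945 recurrence they were 8.43 and 8.66 for Mt1 and 5.81 and 6.03 for Mt2.

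In BMDM the Mt2 levels were 2.65, 3.08, 2.20 and 2.04 in vehicle. They were 6.30, 4.57, 5.53 and 5.54 in IR recurrence, 6.06, 6.99, 4.52 and 5.98 in IR+BLZ945 recurrence and 5.63 and 5.03 in BLZ945 recurrence. All 10 recurrent BMDM libraries lay above all 4 vehicle libraries. Mt2 was 8.60-fold higher than vehicle in IR recurrence (log2 fold change 3.10, SE 0.60, adjusted p = 0.0129) and 12.5-fold higher in IR+BLZ945 recurrence (3.64, SE 0.62, adjusted p = 0.0476). In BLZ945 recurrence the change of 2.87 (SE 0.66, adjusted p = 0.162) did not pass by edgeR, and DESeq2 called it (2.83, adjusted p = 0.013). At 5 days BMDM levels were 3.09, 3.07, 4.51 and 2.84 for BLZ945, 2.17 and 1.51 for IR and 3.25, 5.31 and 2.47 for IR+BLZ945. From 5 days to recurrence Mt2 rose for IR by 3.75 (13.5-fold; SE 0.84, adjusted p = 0.00772). For IR+BLZ945 the change of 1.93 (SE 0.64, adjusted p = 0.0984) did not pass by edgeR's main fit, and DESeq2 called it (1.83, adjusted p = 0.0358).

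The Mt1 levels in BMDM were 7.65, 7.78, 7.34 and 7.12 in vehicle, 8.34, 8.10, 9.22 and 6.89 after 5 days of BLZ945, 7.45 and 7.01 after 5-day IR and 7.56, 7.56 and 6.81 after 5-day IR+BLZ945. In recurrence they were 8.94 and 8.30, then 9.04, 8.17, 8.51 and 8.55, then 9.31, 9.78, 8.10 and 8.67. The recurrent libraries lay above every vehicle library. Mt1 rose from 5 days to recurrence for IR+BLZ945 by 1.74 (SE 0.44, adjusted p = 0.0276), and for IR the change was 1.34 (SE 0.50, adjusted p = 0.0804). The IR change passed by DESeq2 (1.29, adjusted p = 0.0384) and in 1 edgeR fit over all libraries (1.35, 0.0388). Between the populations, Mt2 was higher in MG in vehicle tumors, by 2.48 (5.58-fold; SE 0.59, adjusted p = 0.00383; 4 of 4 mice), and Mt1 passed in no such comparison. The 6 astrocyte markers summed to 405 to 2400 CPM in vehicle MG and to 35.7 to 136 CPM in vehicle BMDM. In MG after 5-day IR, where Mt1 and Mt2 fell, they summed to 2040 and 2580 CPM. Their part in the Mt1 and Mt2 values was not tested.

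In the Malat1-Lars2 fit none of the 15 calls of Mt1 and Mt2 passed. In MG, Mt2 then changed from 5 days to recurrence by 3.53 for IR (adjusted p = 0.118) and 1.71 for IR+BLZ945 (0.354), and Mt1 by 1.58 (0.242) and 1.04 (0.337). In BMDM, Mt2 changed by 0.41 for IR (0.98) and was above vehicle by 0.94 in IR recurrence (0.858) and by 1.60 in IR+BLZ945 recurrence (0.825), and Mt1 changed by 0.42 for IR+BLZ945 (0.722). The falls after 5-day IR came to -1.48 for Mt1 (0.314) and -3.02 for Mt2 (0.178), and the Mt2 difference between populations to 1.70 (0.0872).

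Single libraries also bore on the metallothionein calls. The MG rises for IR were lost without mouse 65972 (Mt1 1.37, adjusted p = 0.137, and Mt2 3.44, 0.0763). The Mt1 fall after 5-day IR was lost without mouse 41, 78, 65966, 65972 or 68345 (-1.63 to -1.17, adjusted p 0.0507 to 0.495), with a mouse-number term (-1.65, 0.0958) and in 1 fit over all libraries (-1.71, 0.0504), and the Mt2 fall without mouse 78, 65698 or 65972 (-4.48 to -2.74, 0.0578 to 0.359) and with the mouse-number term (-3.47, 0.0547). In BMDM, the Mt2 rise for IR was lost without mouse 65698 (4.09, 0.0752), the Mt1 rise for IR+BLZ945 without mouse 65696, 65971, 67537, 67169 or 67543 (1.38 to 1.84, 0.0562 to 0.137) or with the sex term (1.43, 0.106), and Mt2 in IR+BLZ945 recurrence against vehicle without any 1 of 14 libraries (the 4 of vehicle, the 2 of BLZ945 recurrence, the 4 of IR recurrence and those of mice 123, 65696, 67169 and 67543; 3.16 to 3.86, 0.0516 to 0.215) and with RLE scaling (3.59, 0.0506). With the sex term neither Mt2 difference from vehicle passed, in IR recurrence (1.99, adjusted p = 0.148) or in IR+BLZ945 recurrence (2.71, 0.157).

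Adding BLZ945 to IR, or IR to BLZ945, was not called for any member in MG by edgeR in 4 comparisons, in which 0.227% (5-day IR+BLZ945 against IR), 9.84% (against BLZ945), 0% and 0% (the recurrences) of all genes passed. Of the 40 member tests, 12 had an unadjusted p under 0.05, and DESeq2 called 6, counts for which no share of all genes is given here. Slc40a1 had the smallest unadjusted p of these 40, in IR+BLZ945 against BLZ945 recurrence (log2 fold change 2.05, SE 0.51, adjusted p = 0.438). In BMDM no member passed by edgeR in the 3 other comparisons. For 5-day IR+BLZ945 against 5-day BLZ945, where 3.58% of all genes passed, 4 members had an unadjusted p under 0.05 and DESeq2 called 1. For the 2 comparisons of recurrences, where 0% of all genes passed, both counts were 0. Between the populations, no member passed by edgeR in BLZ945 recurrence (0.0818% of all genes; 0 with an unadjusted p under 0.05), in IR recurrence (1.91%; 2) or in IR+BLZ945 recurrence (4.41%; 0), and DESeq2 called 0 in each. The member counts in vehicle, 5-day BLZ945, 5-day IR and 5-day IR+BLZ945 were 2, 5, 2 and 2, where 9.14%, 21.8%, 9.09% and 12.8% of all genes passed. Differences between the populations in the response to the other 5 treatment stages were called for 0 members by edgeR and by DESeq2. For 5-day IR, 5-day IR+BLZ945 and the BLZ945, IR and IR+BLZ945 recurrences, 0.0755%, 0.358%, 0%, 0.0189% and 0% of all genes passed. Members with an unadjusted p under 0.05 numbered 3, 2, 0, 3 and 2, and the shares of all genes at that threshold are not given here.

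Across the 46 libraries the members fell into sets that moved alike. Pearson's r of the log2 levels was 0.89 for Mt1 and Mt2, 0.84 for Fth1 and Mt1, 0.82 for Fth1 and Mt2, and 0.76 for Fth1 with Ftl1 and with Hmox1. Slc11a1 had r of 0.65 with Slc11a2 and 0.56 with Slc40a1. Tfrc had negative values with all the others, from -0.05 to -0.42. These libraries share mice, stages and RNA makeup, so the values are descriptions. Of 14040 genes searched, those most like a member over the 46 libraries were Bnip3 for Hmox1 (r = 0.914), Prdx1 for Fth1 (0.918), Ninj1 for Ftl1 (0.858), Angptl7 for Slc40a1 (0.901) and Dhx36 for Tfrc (0.692). They were Meis3 for Slc11a2 (0.821), Iigp1 for Cp (0.761), Eef1d for Mt1 (0.904) and Mif for Mt2 (0.929).

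Other genes of iron, heme and metal handling, 65 in 6 lists, were read for the same comparisons, and 59 of them were tested in each population. From 5 days to recurrence, 3 rose and 1 fell in MG for BLZ945, 5 rose and 1 fell for IR, and 9 rose and 8 fell for IR+BLZ945. In BMDM 5 rose and 0 fell for BLZ945, 7 rose and 3 fell for IR, and 5 rose and 0 fell for IR+BLZ945. Over all genes 6.32%, 8.13% and 11.5% rose in MG and 1.92%, 3.43% and 16.6% fell, and in BMDM 5.17%, 7.06% and 1.78% rose and 1.65%, 5.48% and 1.92% fell. With the Malat1-Lars2 term these calls came to 0 of 4, 0 of 6 and 1 of 17 in MG and to 0 of 5, 0 of 10 and 0 of 5 in BMDM. The median change of the tested genes lay between -0.04 and 0.46, beside -0.08 to 0.21 for all genes. Prdx1, a peroxidase that NRF2 controls, rose for IR and IR+BLZ945 in MG (1.70, SE 0.40, adjusted p = 0.00872, and 1.73, SE 0.34, adjusted p = 0.00205) and in BMDM (1.58, SE 0.40, adjusted p = 0.0153, and 2.07, SE 0.35, adjusted p = 0.003). Prdx1 did not pass in any of the 4 in the Malat1-Lars2 fit (1.02, 1.10, 0 and 1.26, adjusted p 0.469, 0.264, 1 and 0.144). Slc48a1, which carries heme out of the lysosome, rose in the same 4 comparisons, by 1.31, 1.48, 1.35 and 1.09, and passed in none of them in that fit (0.92, 1.11, 1.26 and 1.04).

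Steap3, Srxn1 and Blvrb were among the genes called in more than 1 recurrence. Steap3, a ferric reductase of the endosome, rose in MG in all 3 recurrences against 5 days, by 2.10 (SE 0.61), 2.82 (SE 0.76) and 2.46 (SE 0.63). In BMDM, Srxn1, which repairs oxidized peroxiredoxins, rose in all 3, by 2.27 (SE 0.37), 1.73 (SE 0.42) and 1.94 (SE 0.36), and Blvrb, a biliverdin reductase, rose for BLZ945 (1.55) and for IR+BLZ945 (1.66). None of these rises passed in the Malat1-Lars2 fit. A difference between the populations in these changes was not tested. In BMDM after 5 days of BLZ945, where Hmox1 fell, 0 of 59 tested genes of the lists rose and 3 fell, a share near that of all genes (3.56% lower). They were Slc39a8, a metal importer (-2.0, SE 0.51, adjusted p = 0.0246), Ncoa4, the receptor that takes ferritin to the lysosome (-0.84, SE 0.22, adjusted p = 0.0278), and Srxn1 (-1.40, SE 0.32, adjusted p = 0.0134). All 3 passed in the Malat1-Lars2 fit. Most of these 3 did not pass without the doubted libraries, which include BMDM libraries of this stage.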

How the data were processed

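The deposited values are read counts per gene symbol for 46 libraries; the tools that the submitters' processing notes name are STAR 2.5.0e, HTSeq, CASAVA 1.8 and DESeq2, and the build is mm10. The gene annotation and the strand setting are not given in the sources used here, and per the labels the libraries came from a Smart-Seq kit, whose reads carry no molecular identifiers, so PCR copies were counted as reads. Each column was matched to its sample by name.

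Genes were kept by edgeR's filterByExpr (minimum count 10, minimum total 15), which left 14534 (MG), 14568 (BMDM) and 15901 (both) genes, with at least 99.95% of counts. Libraries were scaled by TMM, and log2 CPM values were computed from the deposited counts over all 46 libraries with a prior count of 1. Differences were tested with edgeR 4.0.16 (R 4.3.3), robust quasi-likelihood, in 1 fit per population with stage as group and in 1 fit of 14 groups for MG against BMDM and for differences in response. P-values were adjusted by Benjamini-Hochberg over all genes tested in a comparison, with a threshold of 0.05. Common biological coefficients of variation were 0.484 (MG), 0.651 (BMDM) and 0.589 (both), and the median depth was 11730650.5 counts per library. A level of 3 counts, taken as the floor for a gene without reads, was between 0.177 and 0.998 CPM.

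MG and BMDM libraries of the same mouse are pairs per the labels. Their deviations from the group means correlated with r between -0.09 and 0.44 (median 0.15, 13 of 23 pairs over 0.1), and an edgeR fit with mouse as a term, the replicate block, was an alternative. The other alternatives were DESeq2 1.42.0, RLE scaling, no low-count filter, leaving out the 6 doubted libraries, a mouse-number term (short or 5 digits, the one possible batch in the labels), the log2 level of Malat1 minus that of Lars2 as a covariate, 1 fit over all 46 libraries, and fits that omit 1 library at a time. A term for whether Xist lay above the mean of the Y-linked genes in a library was added after seeing the data. The tests were checked on simulated data. Of each pathway list, up to 3 genes of smallest adjusted p that passed could be named in a comparison, and of the genes most like each member the first of 2 is printed, except for Slc11a1, where it is not reported here. The members and lists were chosen with earlier results of these data known. No 2 libraries of the same group were alike within sampling noise (58 pairs), and pairs across groups were not compared. Where the labels give separate mice, p-values measure the spread between mice.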

Additional observations from a re-analysis of the deposited data

Results flagged for a closer look

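In 4 of 80 groups of 4 libraries, 1 library stood far from the other 3, and chance alone marks about 1 group in 20. Slc40a1 in MG after 5 days of BLZ945 was at 6.87 log2 CPM in mouse 65975, with the others between 8.11 and 8.16. Slc11a1 in BMDM after 5 days of BLZ945 was at 7.62 in mouse 124, with the others between 6.55 and 6.67, and Mt2 in the same library was at 4.51, with the others between 2.84 and 3.09. Mt2 in vehicle MG was at 2.14 in mouse 65967, with the others between 5.17 and 5.58.

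The response to 5 days of BLZ945 differed between MG and BMDM for 2 genes by a test of the difference itself. The phagosome metal transporter Slc11a1 differed by 1.59 on the log2 scale (SE 0.35, edgeR adjusted p = 0.0089) and passed in every alternative fit. The ferroxidase Cp differed by 4.36 (SE 1.12, edgeR adjusted p = 0.0339), and not with the mouse as a replicate block (4.24, adjusted p = 0.109).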

How the results depend on the processing

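Of the 59 calls, DESeq2 kept 59 and added 35, RLE scaling kept 58, no filter 54, leaving out the doubted libraries 53 (adding 25), the mouse-number term 52, the sex term 51, 1 fit over all libraries 40 of 46, and the Malat1-Lars2 fit 23. Counts of members passing moved by over 1.5 times as follows. The shares of all genes passing in these fits are not given here, so these counts are not set against them. In the Malat1-Lars2 fit, any difference over the stages went from 8 to 2 in MG and from 7 to 4 in BMDM, and treatments against vehicle in MG from 6 to 3. Recurrence against 5 days went from 10 to 1 in each population, where this term and the step itself cannot be told apart. The combination in BMDM went from 1 to 2 and response differences from 2 to 1. The rise of Fth1 in BMDM after IR became -0.61. The cause of these shifts was not tested. With no filter, response differences went from 2 to 1. Against vehicle, the 6 calls in MG became 12 with DESeq2 and 12 without the doubted libraries, and the 4 in BMDM became 15 and 9, 7 with the mouse-number term and 9 in 1 fit. For the combination, the count of 0 in MG became 6 and 2, and the 1 in BMDM became 3 and 2, 2 in 1 fit and 2 with the sex term. With each library left out in turn, the counts ran from 9 to 12 (MG against BMDM, 11), 7 to 9 and 6 to 8 (any difference), 4 to 8 and 3 to 7 (against vehicle), 8 to 12 and 7 to 14 (recurrence against 5 days), 0 to 2 and 1 to 2 (combination) and 1 to 3 (response differences), MG before BMDM. Groups of 2 mice then have a lone library, which is assumed to vary like the other groups. With the mouse as a replicate block, 10 of 13 calls passed, those lost were Slc11a1 at 5-day IR (1.10), Cp at 5-day IR+BLZ945 (2.27) and the Cp response difference (4.24), 3 were gained, and no other call of a member changed.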

Other observations

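Genes of heme and hemopexin handling that are not among the 10 also separated MG from BMDM. Slc46a1, which carries heme and folate, was higher in MG in 6 of 7 stages by edgeR's test, by 2.27 on the log2 scale in vehicle tumors (SE 0.37, adjusted p = 2.99e-05) and by 2.83 (SE 0.37, adjusted p = 3.55e-07) after 5 days of BLZ945, and it still differed in IR recurrence (1.62, SE 0.36, adjusted p = 0.00769) and in IR+BLZ945 recurrence (2.13, SE 0.36, adjusted p = 0.000197), where none of the 10 genes passed. All 4 of these Slc46a1 differences passed in the Malat1-Lars2 fit. Lrp1, the receptor for heme bound to hemopexin, was higher in MG in vehicle tumors (1.35, SE 0.38, adjusted p = 0.0153), after 5 days of BLZ945 (2.38, SE 0.39, adjusted p = 1.15e-05) and after 5-day IR (2.14, SE 0.54, adjusted p = 0.00894). Cd163, the receptor for hemoglobin bound to haptoglobin and a marker of border-associated macrophages, was lower in MG than in BMDM in vehicle tumors (-4.46, SE 1.11, adjusted p = 0.00608) and after 5 days of BLZ945 (-6.89, SE 1.35, adjusted p = 0.000179). Lrp1 and Cd163 passed in that fit after 5 days of BLZ945 but not in vehicle tumors (0.64, adjusted p = 0.427, and -3.69, 0.229), and Lrp1 did not pass after 5-day IR (1.51, 0.0538).

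In MG after 5-day IR+BLZ945, Steap1, Steap2, Bmp6, Mfsd7b and Mt3 lay above vehicle. They were 5 of 59 tested genes of the pathway lists, a share near that of all genes (9.55%), and 0 lay below. With the sex term 2 of the 5 passed, and most of the 5 did not pass without the doubted libraries. Steap2, a metal reductase, was higher by 5.77 (SE 1.54, adjusted p = 0.021) and Bmp6, a growth factor that raises hepcidin in the liver, by 4.25 (SE 1.33, adjusted p = 0.0437), and neither passed in the Malat1-Lars2 fit (5.45, adjusted p = 0.0613, and 3.96, 0.126). Choroid plexus markers were at 1630 and 1750 CPM in 2 of the 3 MG libraries after 5-day IR+BLZ945, and their part in these values was not tested.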
